A study of Mus musculus with 5 samples.

Results

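Cytochrome P450 enzymes of families 1 to 4 were followed through the livers of mice treated with an antibody against CSF1R. The members are all genes whose symbol consists of Cyp, a digit from 1 to 4, a letter and a number, measured by a probe set that carries 1 gene symbol. Where a gene had several such probe sets, the one with the highest mean was kept. There were 66 such genes among 18820 genes measured in this way, in 20 subfamilies, and 43 of them belonged to family 2. The rule used names only and no measured difference. Cyp2d13 also matches the pattern but is annotated by RefSeq as a transcribed pseudogene and was left out.

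The treated group consisted of 2 livers from adult C57Bl/6 mice given M279, an antibody against the receptor CSF1R, and the control group of 3 livers from adult C57Bl/6 mice given rat IgG. In both groups 300 µg was injected into the peritoneal cavity 3 times a week for 6 weeks. Each liver sample was hybridised to 1 Affymetrix array, and values are given as log2 of the intensity that the authors deposited. The labels number the samples but do not tie them to separate animals, and the p-values reflect the spread among these 5 arrays, which may be technical.

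P450 enzymes are haem proteins, most of them anchored in the endoplasmic reticulum, that insert an oxygen atom into their substrates with electrons handed on by P450 oxidoreductase. Families 1 to 3 handle mainly drugs, other foreign compounds, steroids and polyunsaturated fatty acids, and family 4 hydroxylates fatty acids and related lipids. Hepatocytes are the main site of these enzymes. Their genes respond to receptors that sense chemicals or lipids: AHR for family 1, CAR and PXR for Cyp2b, Cyp2c and Cyp3a genes, and PPARA for Cyp4a genes. In mice, several also differ between the sexes under the control of growth hormone.

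The largest difference among the 66 genes was that of Cyp2b10, the main phenobarbital-inducible P450 of mouse liver, so the start regions of Cyp2b10 and of the 2 Cyp2b genes nearest to it on chromosome 7 are shown for comparison. Cyp2b13 and Cyp2b9 are the next measured genes after Cyp2b10 along the chromosome, and both are known as female-predominant P450 genes of mouse liver. Each window runs from 250 bases before to 50 bases after the annotated start, on the plus strand of GRCm38.p6, as given by RefSeq (Cyp2b10 at chr7:25897408-25897707, Cyp2b13 at chr7:26061245-26061544 and Cyp2b9 at chr7:26173159-26173458). Capitals mark AGGTCA, the half-site bound by many nuclear receptors, and GCGTG, the core of the element bound by AHR, on either strand.
Cyp2b10: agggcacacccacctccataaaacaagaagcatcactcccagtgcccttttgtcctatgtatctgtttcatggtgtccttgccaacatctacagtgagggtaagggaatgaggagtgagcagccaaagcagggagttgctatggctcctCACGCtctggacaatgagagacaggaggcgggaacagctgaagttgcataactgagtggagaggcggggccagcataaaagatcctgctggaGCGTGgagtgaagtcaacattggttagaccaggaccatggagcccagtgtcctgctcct
Cyp2b13: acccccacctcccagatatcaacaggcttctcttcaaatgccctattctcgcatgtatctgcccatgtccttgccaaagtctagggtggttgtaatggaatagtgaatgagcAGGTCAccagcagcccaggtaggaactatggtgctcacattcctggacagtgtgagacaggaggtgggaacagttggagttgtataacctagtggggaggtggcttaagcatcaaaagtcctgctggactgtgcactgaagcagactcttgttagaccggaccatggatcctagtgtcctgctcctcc
Cyp2b9: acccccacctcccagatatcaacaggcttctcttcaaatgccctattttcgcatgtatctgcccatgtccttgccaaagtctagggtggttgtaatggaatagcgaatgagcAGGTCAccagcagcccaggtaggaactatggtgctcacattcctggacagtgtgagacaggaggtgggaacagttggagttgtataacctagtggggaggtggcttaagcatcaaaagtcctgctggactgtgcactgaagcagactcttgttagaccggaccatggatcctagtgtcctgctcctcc

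The windows of Cyp2b9 and Cyp2b13 were identical at 298 of 300 aligned bases (99.3%), whereas that of Cyp2b10 matched either of them at 220 of 289 aligned bases (76.1%). AGGTCA was present in the windows of Cyp2b9, Cyp2b13, Cyp2b19 and Cyp2b23 and not in that of Cyp2b10. GCGTG occurred in Cyp2b10 at 101 bases and at 9 bases before the start, and in no other Cyp2b window. Of 32851 promoter windows of the same length, 16.3% held AGGTCA and 32.4% held GCGTG. Of the 54 P450 genes with a window in that table, 16 (29.6%) held AGGTCA, 12 (22.2%) held GCGTG and 23 (42.6%) held TATAAA, the TATA box, which was present in 13.6% of all windows. The STAT motif TTCNNNGAA was found in 4 of the 54 (7.41%), against 8.3% of all windows. Both strands were searched for each motif, and no motif is part of another. A match describes the letters in this window only.

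With limma and an adjusted p of 0.05 as the threshold, 0 of the 66 P450 genes were called, as were 0 of all 35556 probe sets (0%). At an unadjusted p under 0.05 there were 10 of the 66 (15.2%), 9 with higher and 1 with lower values in anti-CSF1R livers, against 18.3% of all genes, 9.91% higher and 8.4% lower. Without control replicate 1 that count was 5, and without control replicate 3 it was 3. Shares of all genes without these arrays are not given here. Both anti-CSF1R arrays lay outside the range of the 3 controls for 28 of the 66 genes (42.4%), of which 22 lay above and 6 below. The same held for 44.6% of all genes, 25.1% above and 19.5% below. The totals over both directions were thus near those of all genes, while by direction 33.3% of the P450 genes lay above and 9.09% below all controls. The difference was under 0.5 in size for 64 of the 66, and for 95% of all genes. The exceptions were Cyp2b10 and Cyp4x1. The mean was higher in anti-CSF1R livers for 44 of the 66 (66.7%), against 56.3% of all genes, and the median difference was 0.10 on the log2 scale, against 0.04 over all genes.

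**Figure D1:**
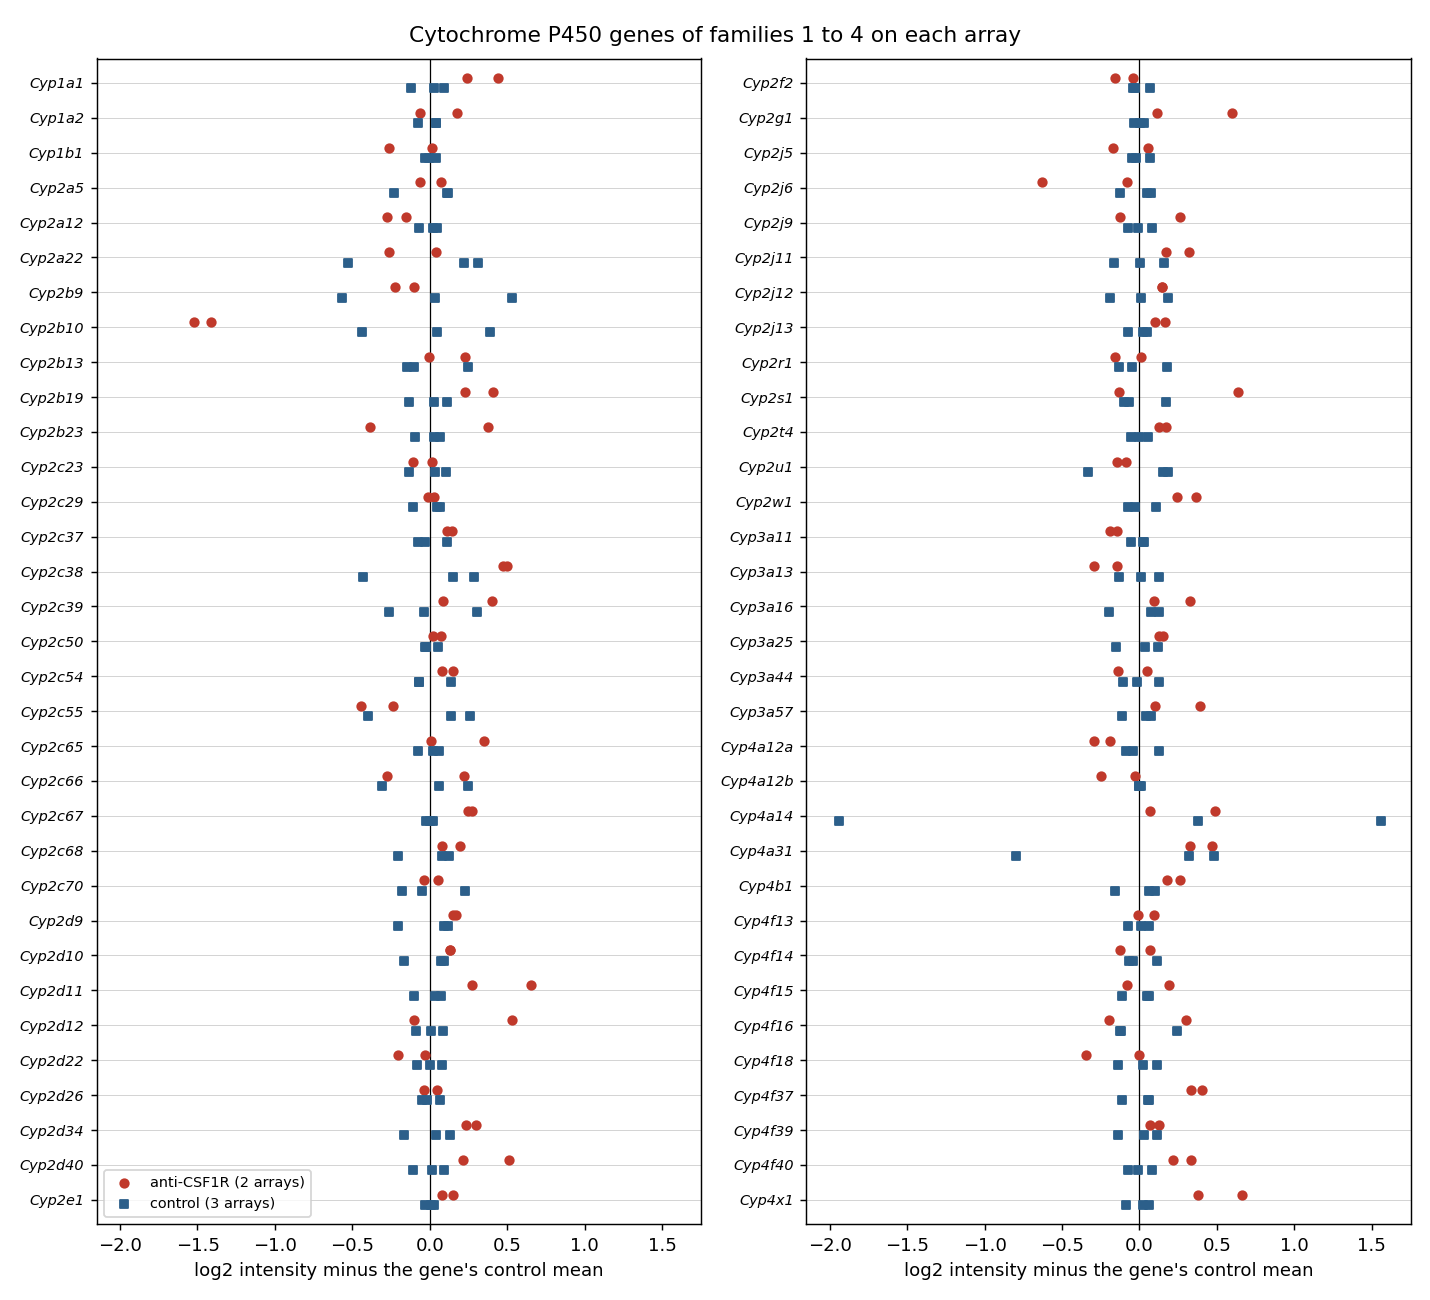
Log2 intensity of each P450 gene on each array, minus that gene's mean over the controls. Red circles are the 2 anti-CSF1R arrays and blue squares the 3 control arrays. Cyp2b10 has both red circles at -1.41 and -1.52, Cyp4a14 has the widest spread of blue squares, and most other points lie within 0.5 of 0.

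Differences on these arrays depended on level over all genes. Over all genes with a mean log2 intensity under 4, the median difference was 0.19, and it was 0.06 between 4 and 6, -0.13 between 6 and 9, and -0.0036 at 9 or more. The P450 genes had medians of 0.21 (15 genes), 0.12 (12 genes), -0.05 (9 genes) and 0.03 (30 genes) in the same ranges. Of the 26 P450 genes under the median level of all genes, 5.59, called dim here, 13 had both anti-CSF1R arrays above all controls and 0 had both below, against 42.1% and 5.43% of all genes under that level. Of the 40 above it, 9 (22.5%) lay above and 6 (15%) below all controls, against 8.13% and 33.6% of all genes above that level. The mean was higher in anti-CSF1R livers for 24 of these 40 (60%), against 33.1% of all genes above that level. These shares were not matched for level, since 30 of the 40 had a mean of 9 or more. Of those 30, 63.3% had higher means, 26.7% lay above and 16.7% below all controls. Over all genes at 9 or more, the shares were closer to these, at 49.4%, 16.6% and 18.9%. With cyclic loess, which removes differences that depend on level, the median of the 66 genes was 0.01, and 36 of the 66 had higher means in anti-CSF1R livers, against 44 in the deposited values and 37 after quantile normalization. As shares of the 66 these were 54.5%, 66.7% and 56.1%. Of all genes, 49.8%, 56.3% and 53.5% had higher means in the same 3 settings. Cyclic loess also brought the median of all genes to -0.001. The part of level in single differences was not tested. No detection call was used here, so a dim gene was not told apart from background.

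**Figure D2:**
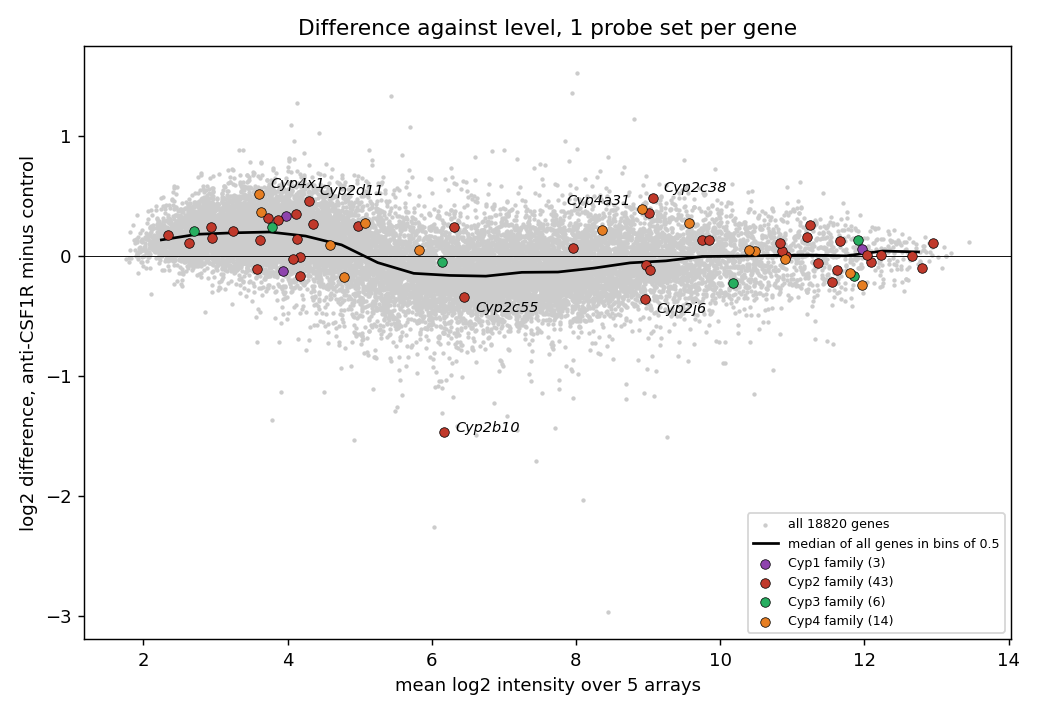
Log2 difference (anti-CSF1R minus control, vertical axis) against mean log2 intensity over the 5 arrays (horizontal axis) for all 18820 genes in grey and the P450 genes in colour by family. The black line is the median of all genes in bins of 0.5. Cyp2b10, at -1.47, lies far below the line, and the other P450 genes lie between -0.36 and 0.52.

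The summed intensity of 6 hepatocyte markers was 41691 and 41017 in anti-CSF1R livers, against 43515, 42544 and 41776 in controls, both slightly lower, and albumin (Alb) differed by 0.001 ± 0.10 (SE). Csf1r was lower, at 7.93 and 8.12 in anti-CSF1R livers, against 8.49, 8.68 and 8.61 in controls (-0.56 ± 0.12, SE, adjusted p = 0.191 in limma). The summed intensity of 11 macrophage markers was 3493 and 4713 in anti-CSF1R livers and 4436 to 5137 in controls. Of these 11 markers, 10 lay above the median level of all genes, where 33.1% of all genes had higher means. Of the 11 markers, 9 had lower and 2 higher means, and none was at 0. Marco, a scavenger receptor, was one of the higher ones, at 6.11 and 6.36 in anti-CSF1R livers, against 5.14, 4.89 and 4.67 in controls. The part of these markers in the P450 values was not tested. In whole liver, fewer cells of a type and less RNA per cell cannot be told apart. Sums over markers of endothelial, stellate, bile duct and lymphoid cells gave 1347 to 1522, 1205 to 1325, 185 to 260 and 126 to 188 in anti-CSF1R livers, against 1546 to 1613, 1122 to 1347, 243 to 268 and 136 to 172 in controls. The sum of 3 markers of pancreas and fat was 51 and 53, against 41 to 44, at intensities where dim genes in general had higher values in anti-CSF1R livers. The sum of 2 neutrophil markers, which were dim too, was 55 on both anti-CSF1R arrays, against 43 to 48. Of all dim genes, 42.1% had both anti-CSF1R arrays above all controls.

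Cyp2b10 encodes the P450 that phenobarbital induces most in mouse liver, through the receptor CAR. Its log2 intensity was 5.35 and 5.24 in anti-CSF1R livers, against 6.32, 7.15 and 6.81 in controls. The lowest control thus lay well above both anti-CSF1R arrays. On the linear scale this was an intensity of 40.8 and 37.7 in anti-CSF1R livers, against 80.0, 142 and 112 in controls. The difference was -1.47 ± 0.24 (SE), or 2.76-fold lower, with an unadjusted p of 0.000896 and an adjusted p of 0.185 in limma. Of 18820 genes this was the 8th lowest difference and the 48th smallest p. Differences of at least 2-fold downward with groups apart were found for 0.181% of all genes. When limma was fitted on 1 probe set per gene, a fit that called 14 genes, the adjusted p of Cyp2b10 was 0.0598. Leaving out 1 array moved the difference between -1.69 and -1.27, and it was -1.52 and -1.41 on either anti-CSF1R array alone.

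The other Cyp2b genes were measured at low intensity. Cyp2b9 stood at 4.01 and 4.14 in anti-CSF1R livers, against 3.68, 4.77 and 4.28 in controls, and the groups overlapped. Cyp2b13 stood at 2.81 and 2.58, against 2.48, 2.44 and 2.83, and it too overlapped. Cyp2b19, an epoxygenase of skin keratinocytes, stood at 4.02 and 3.83, against 3.64, 3.72 and 3.47, a difference of 0.32 ± 0.13 (SE) with groups apart. Cyp2b23 ranged more widely in anti-CSF1R livers than in controls, at 4.56 and 3.79, against 4.21, 4.09 and 4.24. Cyp2b9 and Cyp2b10 had their lowest control value on the same array, control replicate 1, and their highest on control replicate 2.

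**Figure D3:**
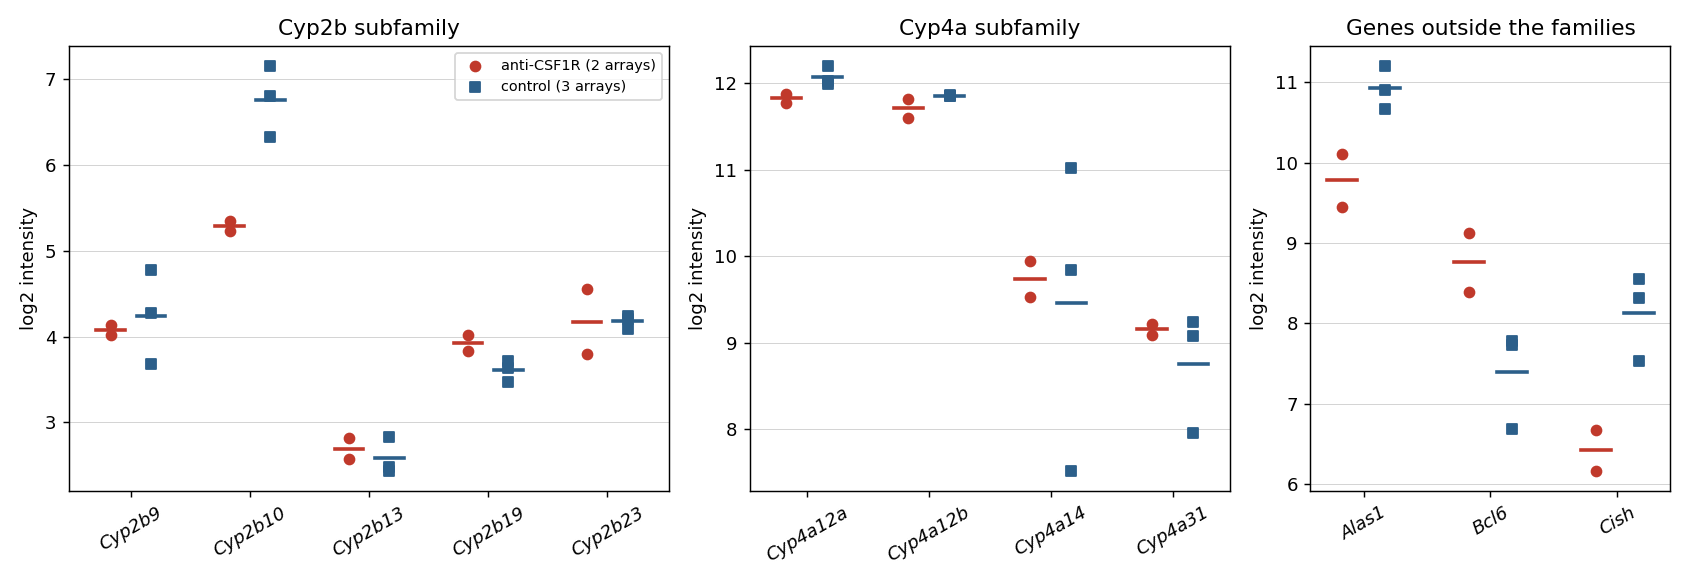
Log2 intensity on each array for the Cyp2b genes, the Cyp4a genes and Alas1, Bcl6 and Cish, with anti-CSF1R arrays as red circles, controls as blue squares and bars at group means. Cyp2b10 and Alas1 have both anti-CSF1R arrays below all controls, while the controls of Cyp4a14 span 3.50 on the log2 scale.

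Other genes known as targets of CAR or PXR had smaller differences than Cyp2b10. Cyp3a11, the leading drug-metabolising P450 of mouse liver and a PXR target, stood at 11.74 and 11.78 in anti-CSF1R livers, against 11.94, 11.87 and 11.95 in controls. Both anti-CSF1R arrays lay below all controls, by a difference of -0.16 ± 0.10 (SE, adjusted p = 0.392 in limma). Cyp2c55 stood at 6.35 and 6.14, against 6.19, 6.72 and 6.85, with overlap and a difference of -0.34 ± 0.22 (SE). Cyp2c29, an abundant arachidonic acid epoxygenase, stood at 12.25 and 12.21, against 12.11, 12.29 and 12.27, a difference of 0.01 ± 0.11 (SE). Cyp2c37 (0.13), Cyp2c50 (0.05) and Cyp2c54 (0.11) differed little. Over the 7 genes listed as CAR or PXR targets the median difference was 0.01, against 0.04 over all genes, with differences between -1.47 and 0.13. That list and the other lists of members by role were drawn up with earlier results of these data known. The CAR gene itself, Nr1i3, was measured only by a probe set that also carries Tomm40l. That probe set stood at 9.91 and 10.23 in anti-CSF1R livers, against 9.36, 9.31 and 9.65 in controls (0.63 ± 0.16, SE, adjusted p = 0.193 in limma), and which of these genes it followed cannot be told. PXR (Nr1i2) stood at 9.46 and 9.25, against 9.28, 9.13 and 9.16.

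Family 1 holds the classical AHR targets. Cyp1a2, a constitutive liver enzyme that oxidises caffeine and arylamines, stood at 12.13 and 11.89 in anti-CSF1R livers, against 11.99, 11.87 and 11.99 in controls. Its difference of 0.06 ± 0.12 (SE) was within the spread of the arrays. Cyp1a1, which is low in liver until AHR is activated, stood at 4.09 and 4.29, against 3.73, 3.94 and 3.88 (0.34 ± 0.12, SE, unadjusted p = 0.0342, adjusted p = 0.245 in limma). Cyp1b1, an AHR target found mostly outside hepatocytes, had 2 probe sets that disagreed. The brighter one stood at 4.0 and 3.72, against 3.95, 4.02 and 3.97, and the other at 3.75 and 3.64, against 3.30, 3.24 and 3.31. All of these Cyp1a1 and Cyp1b1 values lay in the range where dim genes had higher medians in anti-CSF1R livers. Ahr itself stood at 8.96 and 8.98, against 8.92, 8.95 and 8.91, and its partner Arnt at 9.15 and 8.82, against 9.45, 9.40 and 9.49 (-0.46 ± 0.13, SE, adjusted p = 0.207 in limma). Ahrr, the AHR repressor, was dim and differed by 0.35 ± 0.14 (SE).

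The Cyp2c subfamily had 13 measured genes, which in mouse liver include epoxygenases of arachidonic acid and enzymes acting on steroids and bile acids. Of these, 10 (76.9%) had higher and 3 lower means in anti-CSF1R livers, against 56.3% of all genes with higher means. Groups were apart for 3 (23.1%), all above the controls, against 25.1% of all genes above and 44.6% in either direction. Of the 13 genes, 11 lay above the median level of all genes, where 33.1% had higher means and 8.13% lay above all controls. At a mean of 9 or more, these shares of all genes were 49.4% and 16.6%. The median difference was 0.11, or 0.01 with cyclic loess. Cyp2c67 had the smallest p, with very little spread: 11.39 and 11.42 in anti-CSF1R livers, against 11.17, 11.15 and 11.12 in controls (0.26 ± 0.10, SE, unadjusted p = 0.0396, adjusted p = 0.255 in limma). A probe set shared by Cyp2c67, Cyp2c68, Cyp2c69 and Cyp2c40 gave 11.46 and 11.44, against 11.19, 11.19 and 11.21, so these near-identical genes cannot be separated there. Cyp2c68, by its own probe set, overlapped, at 9.89 and 9.77, against 9.48, 9.77 and 9.82. Cyp2c38, an epoxygenase, stood at 9.35 and 9.37, against 8.44, 9.16 and 9.02, and its difference of 0.49 ± 0.22 (SE) was 0.27 without control replicate 1. Its close relative Cyp2c39 overlapped, with a difference of 0.25 ± 0.20 (SE). Cyp2c70, which makes the muricholic acids of mouse bile, differed by 0.01 ± 0.15 (SE). Cyp2c23 (-0.05), an epoxygenase, and the dim genes Cyp2c65 (0.18) and Cyp2c66 (-0.03), known mainly from the intestine, overlapped as well.

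In the Cyp2d subfamily, 7 of 8 genes (87.5%) had higher means in anti-CSF1R livers, against 56.3% of all genes, and 5 of 8 (62.5%) had groups apart, all above the controls, against 25.1% of all genes and 42.1% of dim ones. Of the 8 genes, 3 were dim and 5 lay above the median level of all genes. Above that level 33.1% of all genes had higher means and 8.13% lay above all controls. At a mean of 9 or more, these shares were 49.4% and 16.6%. The median difference was 0.19, with 0.15 on anti-CSF1R replicate 1 and 0.22 on replicate 2. It was 0.11 without control replicate 2, 0.12 with cyclic loess and 0.10 with quantile normalization. Cyp2d40 stood at 9.08 and 9.38 in anti-CSF1R livers, against 8.89, 8.77 and 8.96 in controls (0.36 ± 0.14, SE, unadjusted p = 0.0376, adjusted p = 0.251 in limma). Cyp2d11 had the smallest p of the subfamily but was dim, at 4.38 and 4.76, against 4.18, 4.14 and 4.0 (0.46 ± 0.15, SE, adjusted p = 0.222 in limma). The anti-CSF1R arrays differed from each other here, and the difference was 0.27 without anti-CSF1R replicate 2. Cyp2d9, a male-predominant steroid hydroxylase, stood at 11.30 and 11.29, against 11.25, 10.93 and 11.23, and Cyp2d10 at 9.93 on both arrays, against 9.89, 9.63 and 9.86. For both, control replicate 2 was the low control, and without it the differences were 0.06 and 0.05. Cyp2d34 differed by 0.27 and Cyp2d12 by 0.21, both dim. Cyp2d26 stood at 12.70 and 12.62, against 12.61, 12.64 and 12.72, and Cyp2d22 differed by -0.12 with overlap. The left-out pseudogene Cyp2d13 differed by 0.18 ± 0.12 (SE), close to its neighbours in the subfamily. Control replicate 2 was its low control too, at 10.36. Whether related Cyp2d genes share signal between their probe sets was not tested, so they are not counted as separate measurements.

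The brightest P450 probe sets differed by little between the groups. Cyp2e1, which oxidises ethanol and acetaminophen in hepatocytes around the central vein, stood at 12.98 and 13.05 in anti-CSF1R livers, against 12.91, 12.87 and 12.93 in controls. The groups did not overlap, yet the difference was 0.11 ± 0.10 (SE, adjusted p = 0.53 in limma), and it was -0.03 with cyclic loess. Cyp2f2, a naphthalene-oxidising enzyme of periportal hepatocytes, stood at 12.80 and 12.68, against 12.91, 12.80 and 12.81 (-0.10 ± 0.11, SE). Over the 8 genes listed as pericentral the median difference was 0.05, with a range from -0.16 to 0.13. Of the 30 P450 genes with a mean of 9 or more, 26 differed by under 0.25 in size, and the largest difference was 0.49. Over all genes at such levels, 1660 of 2207 differed by under 0.25.

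The Cyp2a subfamily, 3 genes, gave differences from -0.22 to 0.0048. Cyp2a12, a steroid hydroxylase of liver, stood at 11.48 and 11.36 in anti-CSF1R livers, against 11.57, 11.66 and 11.69 in controls (-0.22 ± 0.11, SE, adjusted p = 0.323 in limma), with groups apart. Cyp2a5, the coumarin hydroxylase, stood at 10.99 and 10.85, against 10.68, 11.03 and 11.03. Cyp2a22 was dim and spread over 0.84 among the controls. A probe set shared by Cyp2a5 and Cyp2a4 differed by -0.07 ± 0.14 (SE).

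Of the 6 Cyp2j genes, epoxygenases of arachidonic acid among them, Cyp2j5 was bright in liver and stood at 11.44 and 11.21 in anti-CSF1R livers, against 11.36, 11.33 and 11.45 in controls. Cyp2j6 stood at 9.02 and 8.47, against 9.15, 8.98 and 9.18 (-0.36 ± 0.18, SE). That difference came from anti-CSF1R replicate 2: it was -0.63 on that array and -0.08 on the other. Cyp2j9 differed by 0.07, and the dim genes Cyp2j11 (0.25), Cyp2j12 (0.14) and Cyp2j13 (0.13) by small positive values.

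Subfamilies of family 2 with 1 gene covered enzymes of varied roles. Cyp2r1, a vitamin D hydroxylase, stood at 8.84 and 9.01 in anti-CSF1R livers, against 8.87, 9.17 and 8.95 in controls. Cyp2u1, a hydroxylase of long-chain fatty acids, stood at 8.99 and 8.93, against 9.26, 8.74 and 9.23. Both overlapped with differences of -0.08 and -0.11. Cyp2e1 and Cyp2f2, also alone in their subfamilies, were bright and are described above. The remaining ones were dim. Cyp2g1, known from olfactory mucosa, stood at 4.09 and 4.57, against 4.0, 3.94 and 3.98. Cyp2s1, an epithelial enzyme, stood at 5.51 and 4.74, against 4.81, 5.04 and 4.77, so that its 2 anti-CSF1R arrays lay on opposite sides of the controls' mean. Cyp2t4 stood at 3.07 and 3.02, against 2.89, 2.84 and 2.95, and Cyp2w1 at 4.11 and 3.99, against 3.85, 3.67 and 3.72 (0.30 ± 0.11, SE, adjusted p = 0.251 in limma).

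Among the 6 Cyp3a genes, which carry much of hepatic drug and steroid oxidation, 3 had higher and 3 lower means in anti-CSF1R livers, with a median of 0.05. Cyp3a25 stood at 12.01 and 11.98 in anti-CSF1R livers, against 11.97, 11.70 and 11.89 in controls (0.14 ± 0.12, SE), and Cyp3a13 at 10.12 and 9.97, against 10.27, 10.39 and 10.13 (-0.22 ± 0.13, SE). Both had groups apart, in opposite directions, and neither passed the threshold. Cyp3a57 had the smallest p of the subfamily, at 4.07 and 3.79, against 3.76, 3.57 and 3.72 (0.25 ± 0.13, SE, adjusted p = 0.349 in limma). That gene was dim, at a level where the median of all genes was 0.19. Cyp3a16 (0.21) and Cyp3a44 (-0.05), female-predominant genes, overlapped. Probe sets shared by Cyp3a41a, Cyp3a41b, Cyp3a44 and Cyp3a11 differed by -0.12 and -0.11, and one shared by Cyp3a59, Cyp3a57 and Cyp3a25 by 0.21.

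Of the 4 Cyp4a genes, fatty acid hydroxylases, Cyp4a14 and Cyp4a31 had the widest spread between control livers among the 66 genes. Cyp4a14, a PPARA target, stood at 9.95 and 9.53 in anti-CSF1R livers, against 7.52, 11.02 and 9.84 in controls. Both anti-CSF1R arrays lay between the lowest and the highest control. Its SD over the controls, 1.78, was the largest of the 66 genes and the 5th largest of all 18820, and the difference of 0.28 ± 0.95 (SE) was -0.69 without control replicate 1 and 1.06 without control replicate 2. Cyp4a31 stood at 9.22 and 9.09, against 7.96, 9.24 and 9.08, with control replicate 1 again the low one. A probe set shared by Cyp4a31 and Cyp4a10 gave 10.31 and 10.09, against 9.23, 10.18 and 10.14, and one shared by Cyp4a32, Cyp4a31 and Cyp4a10 gave 10.72 and 10.54, against 9.69, 10.55 and 10.59. On each of these Cyp4a probe sets, control replicate 1 thus had the lowest value of the 5 arrays. The probe sets that carry Cyp4a31 overlap in their symbols and are no independent evidence of each other. Whether the Cyp4a14 probe set shares signal with them was not tested. An SD over 0.5 between controls was found for 3 of the 66 genes (4.55%), namely Cyp4a14, Cyp4a31 and Cyp2b9, against 0.717% of all genes. Ppara itself stood at 10.20 and 9.94, against 9.85, 9.89 and 9.90 (0.19 ± 0.12, SE).

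Cyp4a12a and Cyp4a12b, male-predominant enzymes, varied less between controls than Cyp4a14 and Cyp4a31. Cyp4a12a stood at 11.88 and 11.77 in anti-CSF1R livers, against 11.98, 12.19 and 12.03 in controls (-0.24 ± 0.12, SE, adjusted p = 0.315 in limma), and Cyp4a12b at 11.82 and 11.60, against 11.84, 11.85 and 11.86 (-0.14 ± 0.11, SE). Both had groups apart, below the controls, with the larger gap on anti-CSF1R replicate 2. Such near-identical genes can share signal between their probe sets.

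In the rest of family 4, the bright Cyp4f genes, which include hydroxylases of leukotrienes, differed by small amounts: Cyp4f13 by 0.04, Cyp4f14 by -0.03 and Cyp4f15 by 0.05. Cyp4f14 stood at 10.98 and 10.78 in anti-CSF1R livers, against 10.86, 10.84 and 11.02 in controls. Cyp4f18, known from myeloid cells, stood at 4.51 and 4.85, against 4.72, 4.96 and 4.87, a difference of -0.17 ± 0.15 (SE) with overlap. Cyp4f37 had the smallest p of the subfamily, at 3.88 and 3.81, against 3.37, 3.53 and 3.54 (0.37 ± 0.11, SE, adjusted p = 0.214 in limma), and Cyp4f40 differed by 0.27 ± 0.11 (SE). Both were dim, and at the level of Cyp4f37 the median of all genes was 0.19. Cyp4f16 (0.05) and Cyp4f39 (0.09) overlapped. Cyp4b1, known mainly from lung, stood at 8.54 and 8.46, against 8.12, 8.34 and 8.37 (0.22 ± 0.12, SE). Cyp4x1, known mainly from brain, had the largest positive difference of the 66 genes, at 4.06 and 3.78, against 3.46, 3.31 and 3.42 (0.52 ± 0.13, SE, unadjusted p = 0.00674, adjusted p = 0.193 in limma). At this level the median of all genes was 0.19.

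Sex is a known source of variation for these genes in mice, and the labels used here do not give it. The Y-linked genes Kdm5d, Uty and Eif2s3y stood between 7.55 and 9.04 on all 5 arrays, and Xist between 3.10 and 3.34. All 5 arrays thus had the same pattern, clear Y-linked signal with dim Xist. Within it, Kdm5d (-0.23) and Uty (-0.21) had both anti-CSF1R arrays below all controls, as had 33.6% of all genes above the median level. The 6 measured genes listed as female-predominant had a median difference of 0.16 and 1 with groups apart, and the 3 listed as male-predominant one of -0.14, with groups apart for each of them, 1 above and 2 below the controls. The share of all genes with groups apart was 44.6%. Among genes of growth hormone signalling, which sets these sex patterns, Cish, an inhibitor induced by STAT5, stood at 6.68 and 6.17 in anti-CSF1R livers, against 7.54, 8.55 and 8.32 in controls (-1.71 ± 0.33, SE, adjusted p = 0.187 in limma). Bcl6, a repressor that opposes STAT5 at many of its sites in mouse liver, stood at 8.40 and 9.13, against 7.73, 7.78 and 6.68 (1.36 ± 0.39, SE, adjusted p = 0.207 in limma). The groups did not overlap for either gene, and 3 of the 10 genes on that list (30%) had an unadjusted p under 0.05, against 18.3% of all genes. The remaining one was Onecut1, at 9.11 and 7.62 in anti-CSF1R livers, against 9.96, 9.52 and 10.13 in controls (-1.51 ± 0.44, SE). Its anti-CSF1R arrays differed widely, and the difference was -0.76 without anti-CSF1R replicate 2 and -2.25 without replicate 1. Socs2, another gene induced by STAT5, overlapped, at 9.87 and 9.62 in anti-CSF1R livers, against 10.06, 8.75 and 9.47 in controls (0.32 ± 0.36, SE, or -0.02 without control replicate 2). Without anti-CSF1R replicate 2 the difference of Bcl6 was 1.00.

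The partners that P450 enzymes need were examined next. Alas1, which sets the rate of haem synthesis in liver and is itself induced with P450 genes by drugs, stood at 10.11 and 9.45 in anti-CSF1R livers, against 10.67, 11.20 and 10.90 in controls. Both anti-CSF1R arrays were below all controls, and the difference was -1.15 ± 0.24 (SE), with an adjusted p of 0.19 in limma and values of -0.81 without anti-CSF1R replicate 2 and -1.48 without replicate 1. Of the 10 measured genes of haem synthesis and breakdown, 1 (10%) had an unadjusted p under 0.05, against 18.3% of all genes, 6 had higher and 4 lower means, and the median was 0.04. Hmox1, the inducible haem oxygenase, stood at 7.85 and 7.90, against 7.51, 7.76 and 7.53 (0.28 ± 0.12, SE). Alad (0.07), Uros (0.07), Urod (0.02) and Fech (0.06) differed by little, and Cpox (-0.28) and Ppox (-0.18) had lower means. Of the 7 measured redox partners, 1 (14.3%) had an unadjusted p under 0.05, namely Pgrmc2, a haem-binding membrane protein (-0.35 ± 0.11, SE). Cyb5r3, which reduces cytochrome b5, stood at 12.25 and 11.98, against 12.31, 12.35 and 12.36, and cytochrome b5 itself (Cyb5a) differed by 0.14 ± 0.11 (SE). No probe set that carries Por alone was listed, so P450 oxidoreductase is not analysed here.

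Of the 19 measured regulators of P450 genes, 0 passed an adjusted p of 0.05, and 5 had an unadjusted p under 0.05 in limma, 1 higher and 4 lower. That share of 26.3% stood against 18.3% of all genes. The median was 0.05. The lower ones were Arnt and the forkhead factors Foxa1 (-0.36 ± 0.12, SE), Foxa2 (-0.37 ± 0.12, SE) and Foxa3 (-0.51 ± 0.18, SE), and the higher one was Ahrr. The forkhead genes had means between 6 and 9, where the median difference of all genes was -0.13. In that range 1107 of 6403 genes had an unadjusted p under 0.05 in limma with lower values, and 99 with higher values. The part of level in these differences was not tested. Foxa2 stood at 7.31 and 7.25 in anti-CSF1R livers, against 7.71, 7.52 and 7.73 in controls. Hnf4a, which maintains many hepatic P450 genes, stood at 11.47 and 11.35, against 11.53, 11.69 and 11.56 (-0.18 ± 0.11, SE). Nr0b2, a corepressor, differed by 0.52 ± 0.23 (SE) with overlap.

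Outside families 1 to 4 there were 20 measured P450 genes, of which 14 differed by under 0.5 in size, against 64 of 66 within them and 95% of all genes. Cyp51, an enzyme of cholesterol synthesis, had the smallest p of that list, at 9.43 and 9.34 in anti-CSF1R livers, against 9.91, 9.93 and 9.95 in controls (-0.54 ± 0.10, SE, adjusted p = 0.187 in limma). Cyp7a1, which starts the classic route from cholesterol to bile acids, followed, at 9.39 and 9.46, against 10.30, 9.73 and 10.14. The retinoic acid hydroxylase gene Cyp26b1 differed by 1.07 ± 0.32 (SE) in the other direction. It stood at 6.82 and 5.88 in anti-CSF1R livers, against 4.91, 5.40 and 5.52 in controls, and the difference was 1.55 without anti-CSF1R replicate 2 and 0.60 without replicate 1. In that list 8 of 20 (40%) had an unadjusted p under 0.05, 4 higher and 4 lower, against 18.3% of all genes, and the median was 0.15. The difference in shares between families was not tested. Among other oxidising enzymes of drugs, the flavin monooxygenase gene Fmo4 stood at 7.14 and 6.67, against 7.62, 7.70 and 7.60 (-0.73 ± 0.16, SE, adjusted p = 0.192 in limma), and Aox3 differed by -0.25 ± 0.13 (SE). The epoxide hydrolases Ephx1 (0.0029) and Ephx2 (-0.01), which act on products of these P450 enzymes, differed by less than their SE of 0.14 and 0.12.

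**Figure D4:**
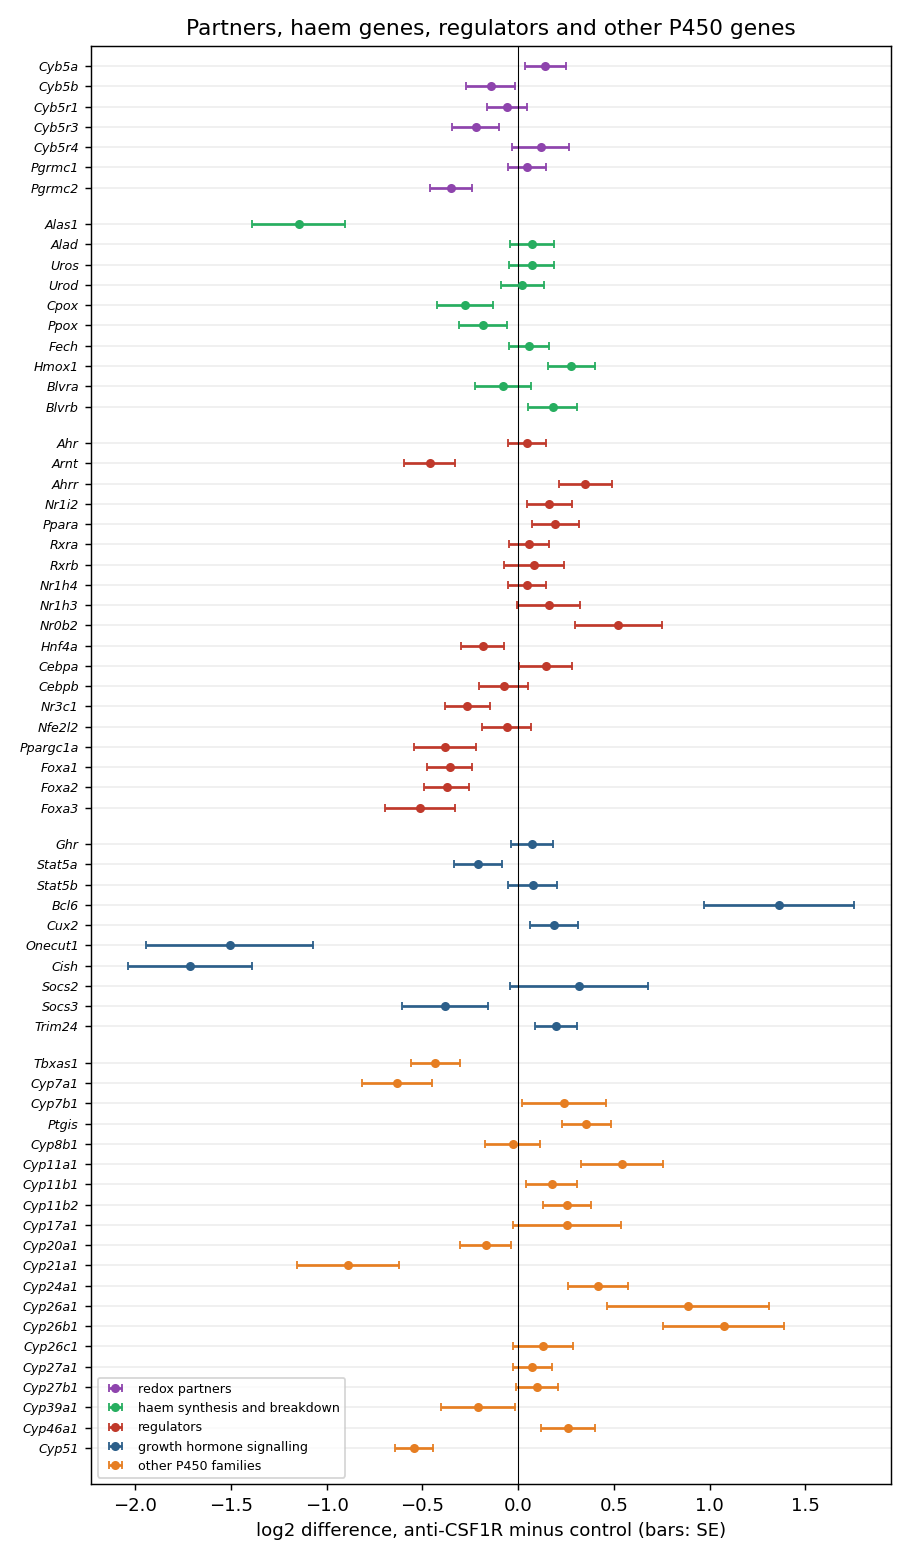
Log2 difference, anti-CSF1R minus control, with bars of 1 SE, for the measured redox partners, haem genes, regulators, growth hormone signalling genes and P450 genes of other families. Cish, Onecut1 and Alas1 lie furthest to the left, at -1.71, -1.51 and -1.15, and Bcl6 and Cyp26b1 furthest to the right, at 1.36 and 1.07.

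A further 9 symbols of families 1 to 4 were found only on probe sets that carry several symbols, namely Cyp2a4, Cyp2c40, Cyp2c69, Cyp3a41a, Cyp3a41b, Cyp3a59, Cyp4a10, Cyp4a32 and Cyp4v3, and 8 such probe sets were measured. All 8 differed by 0.36 or less in size, with Cyp4v3, which shares its probe set with Klkb1, at -0.14 ± 0.14 (SE). Of 79 protein-coding genes of these families in RefSeq, Cyp2j8, Cyp4a29, Cyp4a30b and Cyp4f17 had no listed probe set and are not analysed here.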

How the data were processed

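Liver RNA was amplified with a NuGEN kit and labelled with biotin, per the labels' protocols. The authors deposited 1 intensity per probe set and array on a linear scale, for 35556 probe sets, with array medians from 32.5 to 33.9. Per the submitters' processing notes, the tool was Affymetrix Expression Console 1.1. The sources used here do not give its summarisation or normalization, either of which could set differences that depend on level. Log2 of the deposited intensity was taken with no further normalization. Platform annotation named 21218 probe sets with 1 symbol, 1881 with several and 12457 not at all. All 35556 were fitted by lmFit and eBayes of limma 3.58.1 (R 4.3.3, two-sided, 3 residual and 3.03 prior degrees of freedom, Benjamini-Hochberg over all), anti-CSF1R against control, and errors of differences are its SE. Exact permutation of 2 against 3 arrays cannot go below 0.1 and was not used. Steps were tested on simulated data. The members, gene lists and naming rule (per subfamily the smallest p and highest mean, any difference of 0.5 with an unadjusted p under 0.05, listed receptors, and the 2 smallest p of each list) were chosen with earlier results of these data known, and other members were added as values. The 15 alternatives covered scaling, filters on dim probe sets, probe set choice, a block for the replicate number, weights per array, a trended robust variance and each array left out. Replicate numbers recur in both groups, but nothing in the labels pairs them. Promoters came from RefSeq (GRCm38.p6) by symbol, for 54 of 66 genes. Figures used matplotlib 3.10.9. The small number of arrays limits precision.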

Additional observations from a re-analysis of the deposited data

How the results depend on the processing

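The number of P450 genes past an adjusted p of 0.05 was 0 in all 15 alternatives, and Cyp2b10 kept its direction in each of them, from -1.69 to -1.27, with adjusted p from 0.0598 to 0.398 in limma. Over all probe sets, 14 calls came from fitting 1 probe set per gene and 12 from averaging the probe sets of a gene, against 0 otherwise. The count of P450 genes at an unadjusted p under 0.05, 10 in the deposited values, was 4 with quantile normalization, 3 without probe sets under the median level, which leaves 41 genes, and 3 to 9 with 1 array left out. With the replicate number as a block, a fit with less residual freedom, it was 2, and the block changed no call. The correlation of deviations between arrays of the same number was 0.0268 and 0.0325, and with only 2 pairs the numbers were not taken to pair the samples. The count with groups apart, 28, was 19 with cyclic loess, 19 with quantile normalization, 16 without probe sets under the median level and 31 to 43 with 1 array left out, since fewer arrays separate more easily. For neither count are the shares of all genes in these alternatives given here. The counts of P450 genes alone thus cannot tell whether genes in general moved likewise. The median difference of the 66 genes, 0.10, was 0.01 with cyclic loess, 0.04 with quantile normalization, 0.05 without probe sets under the 25th percentile, 0.04 without those under the median and 0.06 to 0.12 with 1 array left out. Subfamily medians moved for Cyp2b, which was -1.47 without probe sets under the median, where Cyp2b10 alone remained, and -0.10 to 0.23 with 1 array left out. The Cyp2c median was 0.01 with cyclic loess, the Cyp2j median -0.06 without probe sets under the median, and the Cyp3a median -0.05 without those under the 25th percentile and -0.10 without those under the median. The medians of Cyp2a, Cyp2d, Cyp4a and Cyp4f moved by less than the spread between arrays in each alternative.

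Small differences changed sign. With cyclic loess Cyp1a2 was at -0.04, Cyp2c29 at -0.10, Cyp2d26 at -0.13, Cyp2e1 at -0.03 and Cyp2t4 at -0.02. With quantile normalization Cyp1a2 was at -0.02, Cyp2c29 at -0.05 and Cyp2d26 at -0.05. With array weights Cyp2c29 was at -0.001 and Cyp2d26 at -0.01. Averaging both probe sets turned Cyp1b1 to 0.14, median centring turned Cyp4f14 to 0.01 and the block turned it to 0.03. With 1 array left out, Cyp1a2 ran from -0.06 to 0.18, Cyp1b1 ran from -0.26 to 0.01, Cyp2c29 ran from -0.05 to 0.04, Cyp2d26 ran from -0.04 to 0.04, Cyp2j5 ran from -0.17 to 0.06, Cyp2r1 ran from -0.16 to 0.01, Cyp2s1 ran from -0.13 to 0.63 and Cyp4f14 ran from -0.12 to 0.07. None of these genes had an adjusted p under 0.05 in any alternative, and beyond what the fits' construction shows, the cause was not tested.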
